A study of Mus musculus with 12 samples.

Results

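Malat1 and Neat1 are long noncoding RNAs that stay in the nucleus, and Sfpq, Nono, Pspc1, Rbm14 and Tardbp encode proteins of the paraspeckle, the nuclear body built on Neat1. These 7 genes, of 40481 in the deposited expression table, were taken by gene symbol. They were chosen by measured values, since the CPM of Malat1 and Neat1 was higher with the ETV6-RUNX1 fusion. The comparisons of genotypes are therefore given for them as a description, without p-values, and nothing is read from counts of calls. All 7 passed the filter on low values, which kept 14271 genes with at least 1 CPM (reads scaled to the library total) in at least 3 of the 12 libraries.

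The cells were mouse hematopoietic stem cells (HSCs) of 4 groups, each with 3 libraries: WT or ETV6-RUNX1 (a doxycycline-inducible line named iE/R), from fetal liver (FL) at E14.5 (embryonic day) or from bone marrow (BM) of animals 8 weeks old. The cells were sorted and then kept for 3 days in a culture that expands HSCs, with doxycycline at 1 µg/mL in every group, WT included. The groups therefore describe HSCs after culture, and source is joined to age: fetal liver and adult marrow cannot be told apart from fetus and adult. The element that drives the fusion, the sort gate, the sex, and how many animals went into a library are not given in the sources used here, so p-values measure the spread between these libraries only.

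Library totals were 32.3 to 64.5 M reads, and 3 reads, taken as the floor, were worth 0.0465 to 0.0928 CPM. All 7 genes lay far above that floor: the fewest reads in a library, for Pspc1, were 373. Replicates within a group differed by more than sampling noise, with a chi-square per gene of 34.1 to 193. HSC markers, Kit, Procr, Mecom and Hlf among them, were expressed in every library. The ETV6-RUNX1 fetal liver libraries stood apart in the mitochondrial share of reads, 0.921 to 1.10% against 1.34 to 1.84% in the other libraries. Scaling mattered: over all genes tested, the median of the log2 fold changes was 0.13 between genotypes in bone marrow and -0.16 between sources in ETV6-RUNX1 cells. Both became -0.01 to 0.01 with median-of-ratios scaling, so small differences are read below against these shifts.

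Malat1 lies in nuclear speckles, the compartments rich in splicing factors, and is among the most abundant nuclear RNAs of mammalian cells. Neat1 is the scaffold of the paraspeckle: its long isoform binds NONO and SFPQ, which are needed to form the body, together with PSPC1, RBM14 and other RNA-binding proteins. Malat1 and the long isoform of Neat1 end without a poly(A) tail, while the short isoform of Neat1 has one. At the former RNase P cuts off a tRNA-like RNA, and the new end folds into a triple helix in which an A-rich tract sits between U-rich tracts.

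These ends are shown because they are the feature of sequence that Malat1 and the long Neat1 isoform share and that sets them apart from ordinary transcripts. The genes are neighbours on the minus strand of chromosome 19 (GRCm38, GENCODE annotation), Malat1 at chr19:5795690-5802672 and Neat1 at chr19:5824708-5845478, with 22035 bp between them. Each stretch below has 100 bases, written 5′ to 3′, and capitals mark TTTCTTTTCCTGA, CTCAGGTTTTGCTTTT and AAAAAGCAAAA. These 3 words are every exact match of at least 11 bases between the last 100 bases of Neat1-201 and the whole of Malat1-201. The Malat1 stretch is chr19:5795982-5796081 (bases 6592 to 6691 of the 6983 of Malat1-201), and the Neat1 stretch is chr19:5824708-5824807 (bases 20672 to 20771 of the 20771 of Neat1-201).
Malat1: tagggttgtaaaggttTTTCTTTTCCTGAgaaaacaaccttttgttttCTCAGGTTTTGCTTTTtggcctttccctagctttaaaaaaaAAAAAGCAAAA
Neat1: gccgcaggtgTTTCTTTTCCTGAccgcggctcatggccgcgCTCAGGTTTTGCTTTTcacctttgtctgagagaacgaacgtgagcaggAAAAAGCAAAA
The words stand in the same order in both RNAs. Of 9101 annotated lincRNA transcripts, 27 held AAAAAGCAAAA, and Malat1-201 and Neat1-201 were the 2 that held all 3 words in this order within 110 bases. The words come from these RNAs, so the count is a description. The annotated Malat1 transcript runs 292 bases past the stretch shown, whereas Neat1-201 ends with it.

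Malat1 was a highly expressed RNA in every group. In WT bone marrow its level was 3424, 2658 and 3136 CPM in libraries 1 to 3, and in WT fetal liver 1752, 2244 and 2334 CPM. In ETV6-RUNX1 bone marrow it was 6996, 9139 and 5833 CPM, and in ETV6-RUNX1 fetal liver 8367, 6093 and 10877 CPM. Each of the 6 ETV6-RUNX1 libraries exceeded each of the 6 WT libraries, and the 2 ETV6-RUNX1 groups overlapped each other.

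The mean of Malat1 was 2110 ± 314 CPM (SD, n = 3) in WT and 8446 ± 2393 CPM in ETV6-RUNX1 fetal liver, 4.0 times as high. In bone marrow the means were 3073 ± 387 and 7323 ± 1677 CPM, a ratio of 2.38. On the scale of log2(CPM + 1) the differences between genotypes were 1.97 ± 0.22 (SE) in fetal liver and 1.24 ± 0.22 in bone marrow. As a share of all reads, Malat1 went from 0.175 to 0.342% over the WT libraries to 0.583 to 1.09% over the ETV6-RUNX1 libraries. Its rank among all genes was 10 to 22 in WT bone marrow and 40 to 54 in WT fetal liver. It was 2 to 5 in ETV6-RUNX1 bone marrow and 2 in all 3 ETV6-RUNX1 fetal liver libraries.

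Neat1 was far below Malat1 in WT cells of either source. Its level was 89.5, 112 and 92.7 CPM in the WT bone marrow libraries and 131, 63.8 and 84.5 CPM in the WT fetal liver libraries. In ETV6-RUNX1 bone marrow it was 151, 273 and 145 CPM, of which library 2 was also the highest of its group for Malat1. In ETV6-RUNX1 fetal liver it was 812, 710 and 694 CPM. The groups of the 2 genotypes did not overlap in either source, and each ETV6-RUNX1 fetal liver library was above each of the other 9.

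The mean of Neat1 was 93.0 ± 34.2 CPM in WT and 739 ± 63.9 CPM in ETV6-RUNX1 fetal liver, 7.94 times as high, with a log2 difference of 3.03 ± 0.25. In bone marrow the means were 98.2 ± 12.3 and 190 ± 72.3 CPM, a ratio of 1.93, with a log2 difference of 0.89 ± 0.25. Without library 2 of ETV6-RUNX1 bone marrow that difference was 0.60. Its rank among all genes was 1566 to 3189 over the WT libraries, 589 to 1421 in ETV6-RUNX1 bone marrow and 145 to 178 in ETV6-RUNX1 fetal liver. The gene total cannot separate the long isoform, which builds paraspeckles, from the 3 other annotated isoforms of 711 to 3004 bases.

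**Figure D1:**
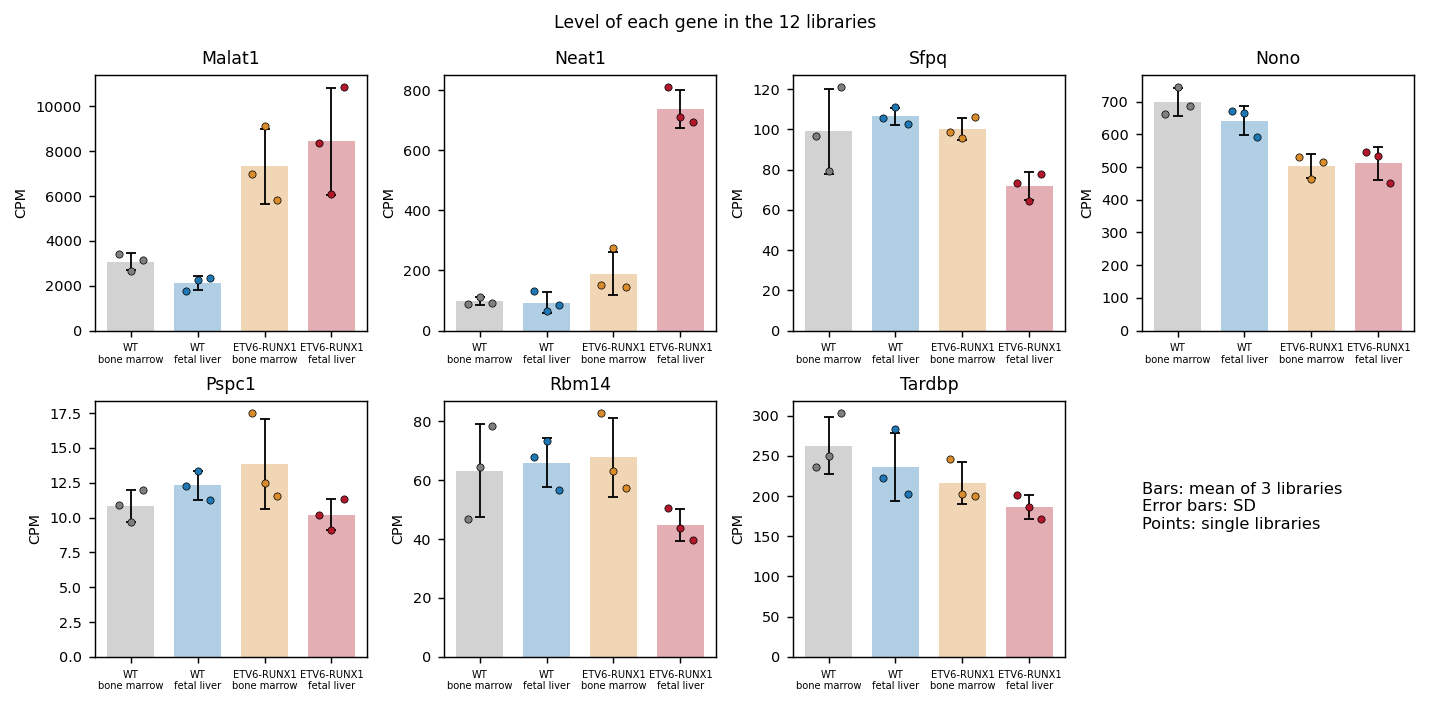
Level of each of the 7 genes in CPM (linear axes from 0) in the 4 groups. Bars are means of 3 libraries, error bars the SD and points single libraries. Neat1 stands at 694 to 812 CPM in ETV6-RUNX1 fetal liver and at 273 CPM or less in the other 9 libraries, whereas Malat1 is high in both ETV6-RUNX1 groups.

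The protein genes did not follow Neat1. SFPQ, a DNA- and RNA-binding splicing protein and a core part of the paraspeckle, had transcripts at 106, 111 and 103 CPM in WT fetal liver and 73.6, 64.5 and 78.1 CPM in ETV6-RUNX1 fetal liver. These groups did not overlap, and the log2 difference was -0.56 ± 0.15. In bone marrow the values were 96.7, 79.2 and 121 CPM in WT and 98.7, 95.5 and 106 CPM in ETV6-RUNX1, with overlap and a difference of 0.04 ± 0.15. Over the alternatives tried the bone marrow difference ran from -0.13 to 0.19, so its sign was not settled. Gm12940 is an annotated transcript on the same strand that overlaps Sfpq. Its means were 7.53 CPM in WT and 21.0 CPM in ETV6-RUNX1 fetal liver, and 12.5 and 33.7 CPM in bone marrow. Reads in the shared stretch could be assigned to either gene, and their part in the Sfpq differences was not tested.

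Nono, which encodes the partner of SFPQ in the same family, was the most highly expressed of the 5 protein genes. It had 671, 664 and 592 CPM in WT and 546, 535 and 453 CPM in ETV6-RUNX1 fetal liver, a log2 difference of -0.33 ± 0.12. In bone marrow it had 662, 746 and 686 CPM in WT and 532, 463 and 517 CPM in ETV6-RUNX1, a difference of -0.47 ± 0.12. Nono was the protein gene whose genotypes did not overlap in either source.

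Pspc1, which encodes the third protein of that family, was the lowest of the 7 genes. It had 9.68 to 13.4 CPM over the WT libraries and 9.12 to 17.5 CPM over the ETV6-RUNX1 libraries. The genotypes overlapped in both sources, with log2 differences of -0.25 ± 0.19 in fetal liver and 0.31 ± 0.19 in bone marrow.

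Rbm14, which encodes a coactivator and RNA-binding protein needed for paraspeckles to form, had 67.9, 73.2 and 56.8 CPM in WT and 50.5, 43.6 and 39.9 CPM in ETV6-RUNX1 fetal liver. The groups did not overlap, and the log2 difference was -0.55 ± 0.19. In bone marrow it was 46.9 to 78.4 CPM in WT and 57.4 to 82.8 CPM in ETV6-RUNX1, with overlap and a difference of 0.11 ± 0.19, which ran from -0.08 to 0.28 over the alternatives.

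Tardbp, which encodes the RNA-binding protein TDP-43, had 222, 283 and 202 CPM in WT and 201, 186 and 171 CPM in ETV6-RUNX1 fetal liver. The highest of the latter was just under the lowest of the former, and the log2 difference was -0.33 ± 0.15. In bone marrow it had 236 to 303 CPM in WT and 200 to 246 CPM in ETV6-RUNX1, with overlap and a difference of -0.28 ± 0.15. In fetal liver the differences of all 5 protein genes were below 0 in each of 22 alternative analyses.

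Counted over the 7 genes, 2 were higher and 3 lower in ETV6-RUNX1 fetal liver at a limma adjusted p under 0.05. Over all genes tested that threshold called 43.1%, of which 24.8% of the genes were higher and 18.3% lower. The values chose the genes, so nothing is read from the counts of either source. In bone marrow 2 were higher and 1 lower, beside 14.4% and 4.93% of all genes tested (19.4% either way). By groups that did not overlap, 2 were higher and 4 lower in fetal liver (32.3% and 23.3% of all genes), and 2 were higher and 1 lower in bone marrow (23.6% and 10.9%).

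**Figure D2:**
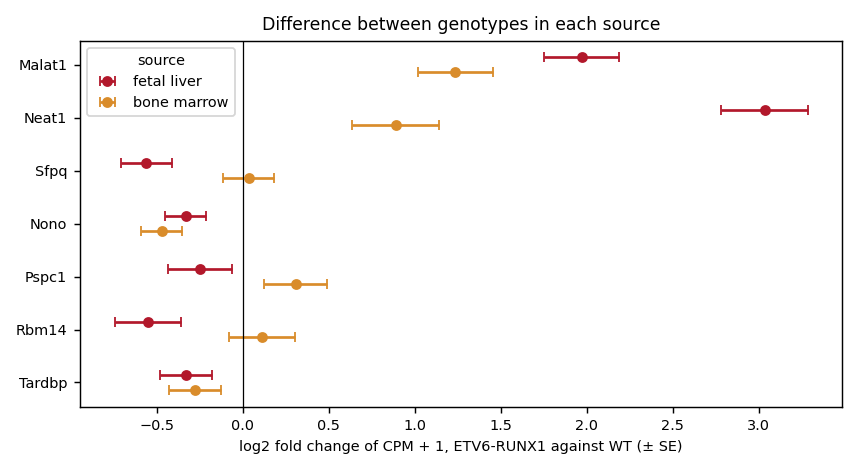
Difference between genotypes of each gene on the scale of log2(CPM + 1), ETV6-RUNX1 minus WT, in fetal liver and in bone marrow. Points are the fitted differences and bars the SE. Malat1 and Neat1 lie above 0 in both sources, Neat1 at 3.03 in fetal liver and 0.89 in bone marrow, and the 5 protein genes lie between -0.56 and 0.31.

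Whether the difference between genotypes was of another size in fetal liver than in bone marrow was tested with the interaction term of the limma fit, adjusted over all genes by the Benjamini-Hochberg method. This term does not test the rule, but it shares the ETV6-RUNX1 libraries whose high values drew attention to Malat1 and Neat1. For Neat1 the difference was larger in fetal liver by 2.15 ± 0.35 log2 (adjusted p = 0.0021, 95% interval 1.39 to 2.91). It passed in 21 of 21 alternatives, with adjusted p up to 0.0202. For Malat1 the term was 0.74 ± 0.31 with an adjusted p of 0.145 and an interval, not adjusted for multiple tests, of 0.08 to 1.39. Malat1 passed under quantile normalization alone, at 0.88 and adjusted p = 0.0401.

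No protein gene passed in the interaction with limma, edgeR or DESeq2, although 2 (Sfpq and Rbm14) had an unadjusted limma p under 0.05. With array weights Sfpq (-0.65, adjusted p = 0.0319) and Pspc1 (-0.70, adjusted p = 0.0420) passed, and Sfpq also passed without WT bone marrow library 3 (-0.75). Of the 7 genes 1 passed, beside 9.19% of all genes tested (5.56% upward and 3.62% downward). Sfpq had -0.60 ± 0.21 (limma adjusted p = 0.0886) and Rbm14 -0.66 ± 0.27 (limma adjusted p = 0.140). Pspc1 had -0.56 ± 0.26, Nono 0.14 ± 0.17 and Tardbp -0.05 ± 0.21. Intervals from the fit, not adjusted, reached -1.05 for Sfpq and -1.25 for Rbm14, so differences of that size between the sources remain possible.

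In WT cells, which the rule did not use on their own, none of the 7 genes passed between fetal liver and bone marrow with limma, edgeR or DESeq2, and 1 had an unadjusted limma p under 0.05, beside 11.1% of all genes tested (3.38% higher and 7.77% lower in fetal liver). The nearest was Malat1, whose fetal liver libraries all lay below the bone marrow libraries (-0.55 ± 0.22, limma adjusted p = 0.130). Of all genes, 18.9% had groups that did not overlap in that direction. Under quantile normalization Malat1 passed, at -0.64 and adjusted p = 0.0348. Neat1 differed by -0.13 ± 0.25 (limma adjusted p = 0.783, interval -0.67 to 0.41). The 5 protein genes had differences of -0.16 to 0.17.

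In ETV6-RUNX1 cells, Neat1 was higher in fetal liver than in bone marrow by 2.01 ± 0.25 log2 (limma adjusted p = 4.26e-05, interval 1.48 to 2.55), while Malat1 differed by 0.19 ± 0.22 (limma adjusted p = 0.548, interval -0.27 to 0.66). Neat1 kept this call in 22 of 22 alternatives. Sfpq was lower in fetal liver by -0.47 ± 0.15 (limma adjusted p = 0.0281) and Rbm14 by -0.58 ± 0.19 (limma adjusted p = 0.0369). Both calls were lost with median-of-ratios scaling, at -0.31 (adjusted p = 0.162) and -0.42 (adjusted p = 0.0876), and also with edgeR and DESeq2. They were lost too with no filter on low values, and without any 1 of 4 libraries each. For Sfpq these were libraries 1 and 3 of bone marrow and 1 and 2 of fetal liver. For Rbm14 they were libraries 1 and 2 of bone marrow and 2 and 3 of fetal liver. So 1 gene was higher and 2 lower, beside 10.4% and 18.2% of all genes (28.6% either way), and by groups that did not overlap 1 was higher and 3 lower, beside 14.4% and 27.8%.

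For both RNAs the group means, from lowest to highest, were WT fetal liver, WT bone marrow, ETV6-RUNX1 bone marrow and ETV6-RUNX1 fetal liver. For Malat1 neither pair of neighbours within a genotype passed the test. For Neat1 the WT groups overlapped, and ETV6-RUNX1 fetal liver stood apart from its neighbour by the test above. Neat1 per 100 CPM of Malat1 was 2.61 to 7.46 over the WT libraries, 2.16 to 2.99 in ETV6-RUNX1 bone marrow and 6.38 to 11.6 in ETV6-RUNX1 fetal liver. The last range overlapped that of WT fetal liver, so the proportion of the RNAs did not separate these groups.

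Against the sum of its 5 protein genes, Neat1 moved much further. That sum was 965 to 1200 CPM over the WT libraries, 837 to 977 CPM in ETV6-RUNX1 bone marrow and 753 to 881 CPM in ETV6-RUNX1 fetal liver. Neat1 had 7.72 to 9.78 CPM per 100 CPM of the proteins in WT bone marrow and 5.58 to 12.1 in WT fetal liver. It had 15.5 to 32.7 in ETV6-RUNX1 bone marrow and 84.6 to 92.2 in ETV6-RUNX1 fetal liver. Nono, with means of 504 to 698 CPM by group, made up most of the sum. The ratio also restates the rise of Neat1, for which that gene was chosen. These are ratios of transcripts, and protein was not measured.

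**Figure D3:**
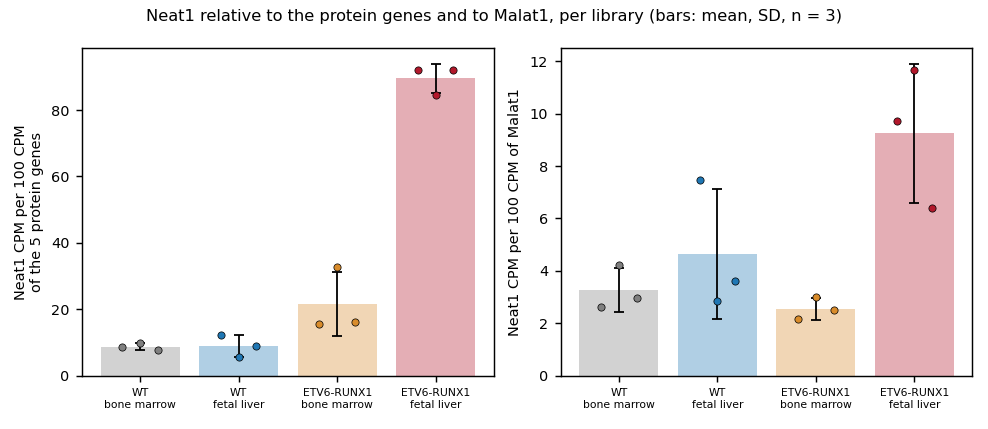
Left, Neat1 CPM per 100 CPM of Sfpq, Nono, Pspc1, Rbm14 and Tardbp together; right, Neat1 CPM per 100 CPM of Malat1. Points are libraries, bars the mean of 3 and error bars the SD, with axes from 0. On the left ETV6-RUNX1 fetal liver stands at 84.6 to 92.2 and all other libraries at 32.7 or less; on the right the groups overlap more.

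Per kilobase of exon, which scales each gene by its annotated length, Malat1 was the highest of the 7 in every group, with means of 302 to 1209 CPM per kb. Nono followed with 115 to 159 CPM per kb. Neat1, spread over the 20771 bases of its long isoform, had 4.48 CPM per kb in WT and 35.6 CPM per kb in ETV6-RUNX1 fetal liver. That last value was above Tardbp (23.9), Sfpq (15.2) and Rbm14 (11.4) in the same group, while in WT fetal liver Neat1 was below all 3 (30.2, 22.4 and 16.9). Reads from the Neat1 isoforms of 711 to 3004 bases would give it a higher level per kb. Its place among the other genes is therefore not settled. Pspc1 was lowest, with 1.78 to 2.41 CPM per kb.

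Replicate spread also differed between members. Within groups the residual SD was 0.30 log2 for Malat1 and 0.38 for Neat1, against a median of 0.25 over the genes tested, and it was 0.11 for Nono. Marker levels of several cell types, HSCs included, differed with Neat1 in ETV6-RUNX1 fetal liver. There the 7 megakaryocyte markers summed to 7056 to 7669 CPM, against 464 to 2082 CPM in ETV6-RUNX1 bone marrow and 3054 to 4517 CPM in WT fetal liver. The 8 erythroid markers summed to 1324 to 2060 CPM, against 379 to 583 and 676 to 938 CPM. The 12 granulocyte-monocyte markers summed to 775 to 980 CPM, against 446 to 625 and 470 to 572 CPM, with Ly6g at or below the floor in every library. The 8 endothelial and stromal markers summed to 147 to 178 CPM, against 90.2 to 97.2 and 75.2 to 107 CPM, and the 6 B cell markers to 55.4 to 81.7 CPM, against 42.0 to 52.1 and 50.1 to 52.5 CPM. The HSC markers summed to 3886 to 4534 CPM, against 3027 to 3726 and 2120 to 2581 CPM. Sums follow the most abundant markers. By limma adjusted p under 0.05, single markers went both ways with ETV6-RUNX1 in fetal liver. Of 7 megakaryocyte markers tested 3 rose and 1 fell. Of 6 granulocyte-monocyte markers tested 4 rose and 2 fell, and of 5 endothelial and stromal ones 2 rose and 1 fell. Of 6 erythroid markers 5 rose and of 12 HSC markers 9, and none of these fell. The 1 B cell marker tested was not called. Over all genes tested 24.8% rose and 18.3% fell. The part of these marker levels, and of the lower mitochondrial share, in the Neat1 result was not tested. The 7 macrophage markers summed to 1.78 to 11.7 CPM, against 4.51 to 9.89 and 1.10 to 2.05 CPM, and 2 of the 3 tested rose with ETV6-RUNX1 in fetal liver, while C1qa was at or below the floor in all 12 libraries. Of the hepatocyte markers Ttr and Serpina1a were at or below it, and the 6 together had 16.2 to 18.1 CPM, against 25.2 to 37.9 and 15.9 to 20.5 CPM. Of the T and NK cell markers Cd3e was at or below it, and the 6 had 17.3 to 21.9 CPM, against 16.1 to 19.5 and 18.7 to 27.1 CPM. The 7 mast cell and basophil markers summed to 7.65 to 13.6 CPM, against 9.35 to 16.2 and 7.78 to 12.5 CPM. Of the 4 tested 1 rose and 2 fell with ETV6-RUNX1 in fetal liver. In such bulk libraries more RNA per cell and more cells with the RNA cannot be told apart.

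RUNX1 binds DNA through its Runt domain, which the fusion keeps, so the promoters in RefSeq (250 bases before to 50 after a gene's start, GRCm38.p6) were searched for short words on both strands. Entries matched 6 of the 7 genes, all but Neat1. The RUNX words TGTGGT and TGCGGT stood in 22.4% of 32851 promoters and in none of the 6. CCGGAAGT, a word bound by ETS factors, stood in 3.89% and in none of the 6. CCAAT stood in 37.4% of promoters, and in those of Sfpq (4 matches, with the overlapping pair in ccaattgg counted on each strand), Rbm14 (4), Nono (2) and Pspc1 (1). A missing word says only that these letters are not in this window. The 250 bases upstream of Malat1, the gene with the highest level here, are chr19:5802673-5802922 on the minus strand, in lower case since they hold none of these words.
Malat1 upstream: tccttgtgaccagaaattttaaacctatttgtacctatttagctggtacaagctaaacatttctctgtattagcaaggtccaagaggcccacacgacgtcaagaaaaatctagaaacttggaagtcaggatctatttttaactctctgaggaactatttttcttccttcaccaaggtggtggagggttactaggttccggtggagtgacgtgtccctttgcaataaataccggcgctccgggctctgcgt

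The genes around Malat1 and Neat1 were tested in the same fit, to show whether the RNAs differed alone or with their neighbours. Of the genes within 100 kb on either side, 10 that passed the filter are reported. In fetal liver 4 of the 10 rose and 1 fell with ETV6-RUNX1, beside 24.8% and 18.3% of all genes tested. In bone marrow 4 rose and none fell (1 fell by an unadjusted limma p under 0.05, 2 with edgeR and 2 with DESeq2), beside 14.4% and 4.93%. Over all genes tested 1355 of 14271 fell there with edgeR and 1583 with DESeq2. The median log2 fold change of the 10 was 0.25 in fetal liver and 0.14 in bone marrow, beside 0.08 and 0.13 over all genes tested.

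Ehbp1l1, which encodes a protein of membrane traffic, rose in both sources, from 72.3 ± 7.24 to 146 ± 16.3 CPM in fetal liver (1.00 ± 0.20 log2, limma adjusted p = 0.00143) and from 46.0 to 106 CPM in bone marrow (1.18 ± 0.20, limma adjusted p = 0.00197). Frmd8, the nearest tested gene on the Neat1 side, rose from 70.8 ± 6.70 to 101 ± 4.65 CPM in fetal liver (0.50 ± 0.16) and from 70.4 to 117 CPM in bone marrow (0.75 ± 0.16). The fetal liver call of Frmd8 was lost in 2 of 22 alternatives. Ltbp3, which encodes a binding protein of latent TGF-β, rose in both, but its ETV6-RUNX1 fetal liver libraries spread from 3.36 to 26.3 CPM, and its bone marrow call was lost in 12 of 21 alternatives.

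Slc25a45, a mitochondrial carrier gene, rose in fetal liver alone by the threshold (0.65 ± 0.14), with 0.20 ± 0.14 in bone marrow. Its difference between the sources did not pass. Map3k11, a kinase of the JNK pathway, rose in bone marrow (1.41 ± 0.22), had 0.37 ± 0.22 in fetal liver, and differed between the sources (-1.04 ± 0.31, limma adjusted p = 0.0491), a call that held in 8 of 21 alternatives. Sssca1 fell in fetal liver (-1.22 ± 0.19, limma adjusted p = 0.00018) and had -0.32 ± 0.19 in bone marrow. Tigd3, Dpf2, Cdc42ep2 and Pola2 passed in neither source, with differences between -0.82 and 0.13, although Cdc42ep2 passed in bone marrow in 8 of 21 alternatives, Dpf2 there in 3 of 22 and Pola2 in fetal liver in 8 of 22. In bone marrow the differences of Ltbp3 (1.53), Map3k11 and Ehbp1l1 were above that of Neat1 (0.89), and the first 2 of these were above that of Malat1 (1.24). In fetal liver all 10 were below both RNAs in the main fit, the values for which those were chosen. For Ltbp3, at 1.85 ± 0.49 with means of 1.51 and 11.5 CPM, that order was not settled. Its difference ran from 1.04 to 2.79 over the alternatives, beside 1.77 to 2.19 for Malat1.

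**Figure D4:**
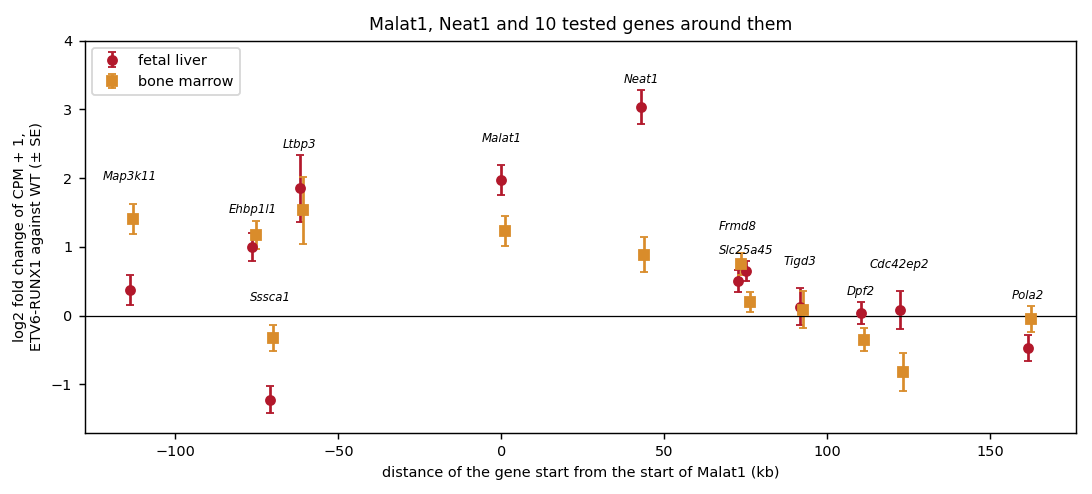
Difference between genotypes on the scale of log2(CPM + 1) against the distance of each gene's start from that of Malat1 in kb, for Malat1, Neat1 and 10 tested genes within 100 kb. Circles are fetal liver, squares bone marrow (drawn 1 kb to the right) and bars the SE. In fetal liver Neat1 is highest at 3.03, Malat1 follows at 1.97 with Ltbp3 at 1.85, and Sssca1 is lowest at -1.22.

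Paraspeckles hold other proteins besides the 5 above. Of 37 genes listed for them, 33 were tested. With ETV6-RUNX1 in fetal liver 4 rose and 9 fell, beside 24.8% and 18.3% of all genes tested. The median was -0.04 log2, beside 0.08. With quantile normalization 1 rose and 10 fell, beside 2717 and 3746 of the 14271 genes tested. In bone marrow 7 rose and 3 fell, beside 14.4% and 4.93%, with a median of 0.06 beside 0.13. With median-of-ratios scaling, however, 3 rose and 4 fell there, beside 1479 and 1313 of the 14271 genes.

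Among those that fell in fetal liver, Runx3, a transcription factor of the RUNX family, went from 24.2 ± 5.03 to 2.71 ± 1.76 CPM (-2.85 ± 0.30, limma adjusted p = 6.39e-06). In bone marrow it had 30.0 and 17.4 CPM (-0.77 ± 0.30, limma adjusted p = 0.0885), and the difference between the sources passed (-2.08 ± 0.43, limma adjusted p = 0.00864). Hnrnpa1, an abundant splicing regulator, fell in fetal liver from 1117 to 1232 CPM over the WT libraries to 437 to 527 CPM (-1.25 ± 0.12, limma adjusted p = 1.71e-06), and in bone marrow by 0.62 ± 0.12 log2. Nudt21, a subunit of the cleavage factor that guides poly(A) site choice, fell in fetal liver (-0.79 ± 0.13). That factor bears on Neat1, since it favours the short isoform. Cpsf7, which encodes another of its subunits, rose in fetal liver (0.52 ± 0.19, limma adjusted p = 0.0360), a call lost in 7 of 22 alternatives.

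Hnrnpk, whose protein favours the long Neat1 isoform by blocking that cleavage, fell from 1632 to 1166 CPM in bone marrow (-0.48 ± 0.13, limma adjusted p = 0.0222, lost in 6 of 22 alternatives). In fetal liver it fell by 0.48 ± 0.13 log2 as well. Hnrnpf fell in bone marrow (-0.41 ± 0.12), a call lost in 8 of 22. Zc3h6, a zinc finger gene, rose in fetal liver from 1.44 to 5.04 CPM (1.32 ± 0.31), and Rbm4b rose there by 0.53 ± 0.19, a call lost in 6 of 22. In bone marrow Zfp335 (1.44 ± 0.30), Ahdc1 (1.14 ± 0.22) and Dazap1 (0.75 ± 0.18) were the highest that rose. Dazap1 differed between the sources (-0.86 ± 0.25, limma adjusted p = 0.0484), which held in 7 of 21 alternatives.

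In ETV6-RUNX1 cells 14 of the 33 were lower in fetal liver than in bone marrow and none higher (by limma, also unadjusted, edgeR or DESeq2), beside 18.2% and 10.4% of all genes tested, with a median of -0.38 beside -0.16. With median-of-ratios scaling 6 were lower, beside 1487 of the 14271 genes tested. In WT cells limma, edgeR and DESeq2 called none of the 33 between the sources, and 9 were lower in fetal liver at an unadjusted limma p under 0.05. With array weights 12 were called lower, beside 3048 of the 14271 genes tested. Without WT bone marrow library 1 there were 6, beside 2073.

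Genes whose products act at the end of Malat1 were listed separately, as end processing. They were the subunits of RNase P, the tRNA 3′ nuclease Elac2, and Mettl16, whose protein binds the triple helix. Of 13 listed, 12 were tested. In fetal liver 10 of the 12 fell with ETV6-RUNX1 and none rose (by limma, also unadjusted, edgeR or DESeq2), beside 18.3% and 24.8% of all genes tested. The median was -0.69 log2 beside 0.08, and 8 to 11 fell over the alternatives. In bone marrow 2 fell, beside 4.93%, with a median of -0.34 beside 0.13. With median-of-ratios scaling 5 fell there, beside 1313 of the 14271 genes tested. None passed in the interaction with limma, edgeR or DESeq2, and 4 had an unadjusted limma p under 0.05. With array weights 4 passed, each with the lower log2 fold change in fetal liver. Without WT bone marrow library 1 there were 3, and without WT fetal liver library 1 there was 1. Over all genes 1948, 1024 and 534 of 14271 passed in that direction in these fits, in that order.

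Rpp40, a protein subunit of RNase P, went from 25.9 ± 1.84 to 9.57 ± 1.33 CPM in fetal liver (-1.35 ± 0.22, limma adjusted p = 0.000235) and fell in bone marrow (-0.69 ± 0.22), a call lost in 12 of 22 alternatives. Rpp30 went from 89.3 ± 11.9 to 39.7 ± 3.81 CPM in fetal liver (-1.14 ± 0.16) and Pop1 from 31.9 to 38.0 CPM over the WT libraries to 12.8 to 24.2 CPM (-1.08 ± 0.23). Rpp14 fell in both sources, by 0.70 ± 0.14 log2 in fetal liver and 0.66 ± 0.14 in bone marrow. RNase P serves all tRNAs, and its activity was not measured.

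**Figure D5:**
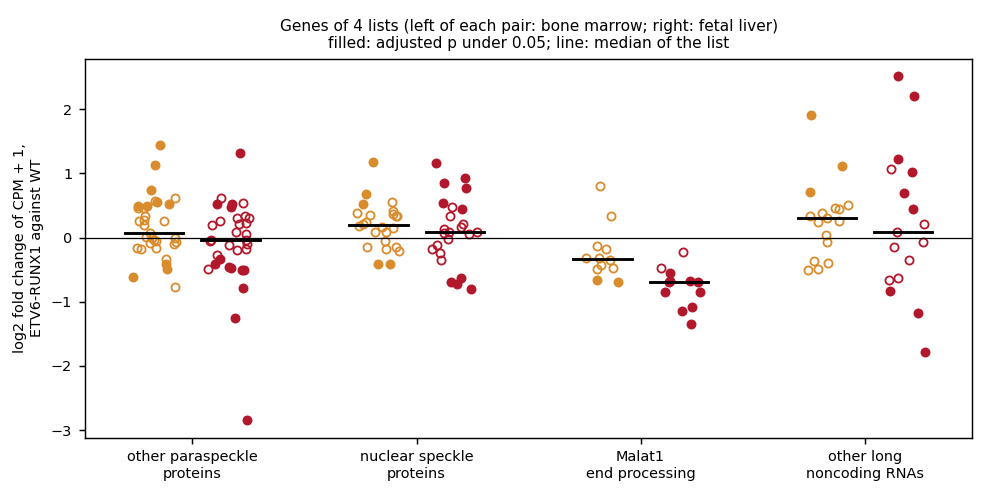
Difference between genotypes on the scale of log2(CPM + 1) of the tested genes of 4 lists, bone marrow on the left and fetal liver on the right of each pair. Points are genes, filled where the limma adjusted p was under 0.05, and lines are medians. The end-processing genes lie lowest, with a fetal liver median of -0.69, and Runx3 is the lowest point at -2.85.

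Nuclear speckles, where Malat1 resides, were listed through 24 genes, all tested. In fetal liver 6 rose and 4 fell, shares near the 24.8% and 18.3% of all genes tested. In bone marrow 3 rose and 2 fell, beside 14.4% and 4.93%. The medians were 0.09 and 0.19 beside 0.08 and 0.13. With median-of-ratios scaling 1 rose and 3 fell in bone marrow, beside 1479 and 1313 of the 14271 genes tested. Ccnl1, a cyclin of transcription and splicing, rose from 45.9 ± 3.56 to 104 ± 9.85 CPM in fetal liver (1.16 ± 0.15, limma adjusted p = 2.79e-05) and by 0.52 ± 0.15 in bone marrow, where 8 of 22 alternatives lost it. Clk1, a kinase that phosphorylates SR splicing proteins, rose in fetal liver from 117 to 224 CPM (0.93 ± 0.15). Ccnl2, a cyclin related to Ccnl1, rose by 0.85 ± 0.31 in fetal liver and 1.17 ± 0.31 in bone marrow, calls lost in 8 and 6 of 22 alternatives.

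Ddx39b, an RNA helicase of splicing and export, fell in fetal liver (-0.73 ± 0.12) and in bone marrow (-0.42 ± 0.12, lost in 7 of 22 alternatives). Rnps1, of the exon junction complex, fell in both as well (-0.70 ± 0.11 and -0.42 ± 0.11, the latter lost in 4 of 22). U2af1, which reads the 3′ splice site, fell in fetal liver (-0.80 ± 0.20), where WT libraries ranged from 94.5 to 184 CPM and ETV6-RUNX1 libraries from 79.3 to 81.4 CPM. The export adaptor Alyref rose in bone marrow (0.68 ± 0.21), a call lost in 9 of 22 alternatives, and had -0.34 ± 0.21 in fetal liver.

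Other long noncoding RNAs gave a comparison with RNAs of the same kind. Of 28 listed, 22 were matched in the table and 17 tested. In fetal liver 6 rose and 3 fell, beside 24.8% and 18.3% of all genes tested. With quantile normalization 3 rose and 6 fell, beside 2717 and 3746 of the 14271 genes. In bone marrow 3 rose and none fell (1 fell by an unadjusted limma p under 0.05, 2 with edgeR and 2 with DESeq2), beside 14.4% and 4.93%. Over all genes tested 1355 of 14271 fell there with edgeR and 1583 with DESeq2. With median-of-ratios scaling the counts were 5 and 5 in fetal liver, beside 3324 and 2994 of the 14271 genes. In bone marrow they were 3 and 1, beside 1479 and 1313. Mir22hg, the host of miR-22, rose from 3.18 ± 1.35 to 22.0 ± 2.23 CPM in fetal liver (2.52 ± 0.25, limma adjusted p = 3.23e-06) and from 1.67 to 2.69 CPM over the WT libraries to 8.79 to 12.6 CPM in bone marrow (1.92 ± 0.25). Mir155hg, the host of miR-155, rose by 2.20 ± 0.24 in fetal liver and 1.12 ± 0.24 in bone marrow. Dleu2, the host of miR-15a and miR-16-1, rose by 1.22 ± 0.19 and 0.71 ± 0.19. The bone marrow call of Dleu2 was lost in 5 of 22 alternatives.

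In fetal liver H19, an imprinted RNA of fetal tissues, fell from 27.4 to 52.5 CPM over the WT libraries to 7.65 to 12.7 CPM (-1.79 ± 0.25, limma adjusted p = 6.31e-05). Pvt1, a neighbour of Myc, fell by 1.18 ± 0.28 log2 and Epb41l4aos, an antisense RNA, by 0.83 ± 0.20 log2. In fetal liver Mir22hg and Mir155hg had larger differences than Malat1 (1.97), and Neat1 (3.03), chosen for that value, a larger one than any of the 17. In bone marrow both host genes had larger differences than Neat1 (0.89), and Mir22hg than Malat1 (1.24).

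The 5 genes whose pattern was most like that of each RNA were named by Pearson's r of log2(CPM + 1) over the 12 libraries, among 10144 genes. All share the same libraries and the same split by genotype, so the values rank likeness only. For Malat1 they were Bcl10 (r = 0.978), Yes1, Mvp, Polr3gl and Cd82 (r = 0.969). Mvp, the major vault protein, had means of 25.0 and 19.7 CPM in WT bone marrow and fetal liver and 70.2 and 81.2 CPM in the ETV6-RUNX1 groups. For Neat1 they were Fyco1 (r = 0.989), F11r, Ccl3, Csf2rb and Fosl2 (r = 0.977). Csf2rb, a receptor chain shared by IL-3 and GM-CSF, had means of 102 and 101 CPM in WT bone marrow and fetal liver, 159 CPM in ETV6-RUNX1 bone marrow and 511 CPM in ETV6-RUNX1 fetal liver. Neat1 ranked 1182 among the genes most like Malat1, although the 2 lie side by side.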

How the data were processed

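Total RNA (Norgen kit) went into SMARTer stranded libraries for small inputs and paired-end NovaSeq sequencing, per the labels' protocols. The authors deposited 1 table of CPM per gene. The submitters' processing notes name STAR 2.5.1a, featureCounts 1.4.6-p5, Salmon 0.8.2, edgeR, limma and GRCm38, with no role; annotation and use of strand in counting are not given in the sources used here. Values were whole multiples of a step in every library (100% within 0.001 reads), which gave back whole reads. The table had 40757 entries; 276 were repeats of an ID already listed and were dropped.

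The filter was 1 CPM or more in 3 or more libraries. Genes that passed were fitted as log2(CPM + 1) with limma 3.58.1 (trended variance, R 4.3.3), 4 groups, 8 residual degrees of freedom, two-sided, Benjamini-Hochberg over 14271 genes, threshold 0.05. The script was tested on simulated data. The 5 comparisons were genotypes in each source, their difference, and sources in each genotype; they share libraries. edgeR 4.0.16 and DESeq2 1.42.0 on the recovered reads, other scalings, filters, a pseudocount of 0.1, weights, a replicate block, 6-library fits and leaving out each library were alternatives. Positions and exon lengths came from the GENCODE annotation of GRCm38 and promoters from RefSeq.

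The 7 genes and the lists were chosen with earlier results of these data known. Genes named were all 7 members, tested neighbours within 100 kb (1 is not reported here), the 3 largest rises and falls called per list and genotype comparison, and the 5 genes most like Malat1 or Neat1 with a group mean of at least 5 CPM, without gene models and sex-linked genes. Intervals and floors cover the spread between libraries or counting error only.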

Additional observations from a re-analysis of the deposited data

Results flagged for a closer look

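The interaction term of limma was looked up for the 7 members, the reported neighbours and the genes named from the lists. The genes most like Malat1 or Neat1 were not looked up. In 9 of the genes looked up the difference between genotypes was not the same in fetal liver and bone marrow. Over all genes tested the share was 9.19%. Genes from the lists were named for large differences between genotypes, so the count cannot be set against that share. Among the 9 the term was positive for Neat1 alone (2.15 ± 0.35 log2, limma adjusted p = 0.0021). Runx3 (-2.08, adjusted p = 0.00864) and Epb41l4aos (-1.21, adjusted p = 0.0154) also passed in 21 of 21 alternatives, as Neat1 did. The others held in fewer: Hnrnpa1 (-0.63) in 11, Alyref (-1.02) in 10, H19 (-1.30) in 9, Map3k11 (-1.04) in 8, Dazap1 (-0.86) in 7 and U2af1 (-0.95) in 6. The value of H19 ranged from -1.56 to 1.70 over the alternatives. Its mean in ETV6-RUNX1 bone marrow, 0.0413 CPM, was under the floor, and no direction is read from it.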

How the results depend on the processing

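Malat1 and Neat1 were higher with ETV6-RUNX1 in both sources in all 22 alternatives, by 1.77 to 2.19 and 2.80 to 3.31 log2 in fetal liver and 1.06 to 1.39 and 0.60 to 1.05 in bone marrow. Counts of genes called moved more. Between genotypes in bone marrow 2763 genes became 1601 in the fit of 6 libraries, and 1520 to 2924 when a library was left out (1520 without ETV6-RUNX1 bone marrow library 2). In the interaction 1311 became 767 with no filter, 3637 with array weights and 731 to 2332 with a library left out (lowest without WT bone marrow library 2, highest without WT bone marrow library 1). Between sources in WT 1591 became 4401 with array weights and 868 to 2781 with a library left out (the same 2 libraries). The share of calls that were higher was 74.5% in bone marrow and 53.0% with median-of-ratios scaling. It was 57.6% in fetal liver and 42.0% with quantile normalization, 36.3% and 57.7% (median-of-ratios) between sources in ETV6-RUNX1 cells, 30.3% and 40.7% between sources in WT cells, and 60.6% and 73.8% in the interaction. Paraspeckle genes lower in ETV6-RUNX1 fetal liver than bone marrow were 6 with median-of-ratios scaling, 6 with edgeR, 7 with DESeq2 and 7 to 15 with a library left out. The cause was not tested.

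Among the members, and among the other named genes between genotypes, values near 0 changed sign, none past the threshold. Outside these, the interaction of H19, which was not near 0, changed sign as well, as given above. Malat1 between sources ran from -0.012 to 0.41 in ETV6-RUNX1 and from -0.65 to -0.42 in WT with a library left out, and Neat1 in WT was 0.028 with edgeR, 0.021 with DESeq2 and -0.41 to 0.10 with a library left out. With quantile normalization Malat1 was 0.88 in the interaction and -0.64 between sources in WT, both past the threshold. Between sources in WT, with a library left out, Sfpq ran from -0.025 to 0.28 and Rbm14 from -0.11 to 0.25. Nono between sources in ETV6-RUNX1 was -0.10 with quantile normalization and -0.041 to 0.10 with a library left out, and Tardbp in the interaction was 0.017 with median-of-ratios scaling, 0.013 with DESeq2 and -0.16 to 0.088 with a library left out. Between genotypes in fetal liver, quantile normalization gave -0.12 for Tigd3 and -0.16 for Cdc42ep2, and Dpf2 was -0.038 with median-of-ratios scaling, -0.043 with edgeR and -0.018 with DESeq2. With a library left out there Tigd3 ran from -0.022 to 0.30, Dpf2 from -0.13 to 0.21 and Cdc42ep2 from -0.11 to 0.34. In bone marrow Tigd3 was -0.036 with median-of-ratios scaling, -0.22 with quantile normalization and -0.11 to 0.44 with a library left out, and Pola2 -0.22 to 0.051 with a library left out.

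The replicate numbers were used as a block only as an alternative: deviations of same-numbered libraries had r of -0.44 to 0.39 over 18 pairs, 7 over 0.1, and 2 of 12 libraries correlated best with their own number. With the block 5838, 2334 and 1033 genes were called in fetal liver, bone marrow and the interaction, and Neat1 stayed at 2.15 in the last. The call of Rbm14 between sources in ETV6-RUNX1 (-0.58) was lost with it.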
